A study of Mus musculus with 20 samples.

Results

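The genes described here are 10 imprinted genes that form a network acting on growth: H19, Igf2, Meg3, Rian, Mirg, Dlk1, Peg3, Mest, Plagl1 and Cdkn1c. They were taken by symbol from a table of 51789 genes, and all 10 were found. RNA had been sequenced from the nucleus pulposus (NP), the gel-like core of the intervertebral disc, and from the annulus fibrosus (AF), the fibrous ring that encloses it. All mice were of the BL6 strain and 24 months old. They had received weekly intraperitoneal injections for 6 months from the age of 18 months, either of the solvent DMSO (vehicle) or of MDL-800 in the same amount of DMSO. The compound activates the deacetylase SIRT6. The 4 groups (NP vehicle, NP MDL-800, AF vehicle, AF MDL-800) had 5 libraries each, and no group lacked DMSO or was younger. The labels do not say that the libraries of a group came from separate mice, so p-values measure the spread between these libraries, which may be partly technical. The labels speak of primary cells, while the protocol describes tissue dissected under a microscope, so each library is a bulk sample of what was dissected.

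Imprinted genes are expressed mainly from the copy inherited from 1 parent, and neighbouring imprinted genes are often controlled together by a methylated control region. Many paternally expressed members, such as Igf2, Dlk1, Mest, Peg3 and Plagl1, are known as genes of fetal growth and progenitor cells, while Cdkn1c and H19, expressed from the maternal copy, are known to restrain growth. Most of the network is high in the embryo and is turned down after birth. The libraries measure the total RNA of a gene and not which parental copy made it.

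Values are FPKM, a measure per gene length, divided by a library scaling factor (scaled FPKM). Depth estimated from the steps in low FPKM values ran from 12.4 to 22.4 M reads per library. NP markers summed to between 6843 and 10050 scaled FPKM in NP libraries and to between 999.8 and 4259 in AF libraries, the last in AF vehicle library 9. AF markers summed to between 33.6 and 206.9 in NP and between 894.7 and 4426 in AF, so both labels matched their markers. No gene of either list was at 0 in every library of either tissue. NP vehicle library 3 stood apart with a skeletal muscle marker sum of 1766, while the other 9 NP libraries had at most 310.1.

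In vehicle-treated mice all 10 members differed between NP and AF, in opposite directions. Peg3, Plagl1 and Cdkn1c were higher in NP, and Igf2, H19, Mest, Dlk1, Meg3, Rian and Mirg were lower in NP. By limma with Benjamini-Hochberg adjustment over 16383 genes, 10 of 10 members had an adjusted p under 0.05, where 55.7% of all genes tested did. The 3 higher members stand beside 21.8% of all genes called higher, and the 7 lower members beside 33.9% called lower. In all 10 the 5 NP libraries did not overlap the 5 AF libraries, as in 41.0% of all genes. The median log2 fold change of the members, NP against AF, was -1.84, and that of all genes tested was -0.08. Several members entered the test through AF alone: Mirg and Dlk1 reached 1 FPKM in 0 of 10 NP libraries, Igf2 and Mest in 1 and H19 in 2, so these counts describe the members and are no support for a difference.

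**Figure D1:**
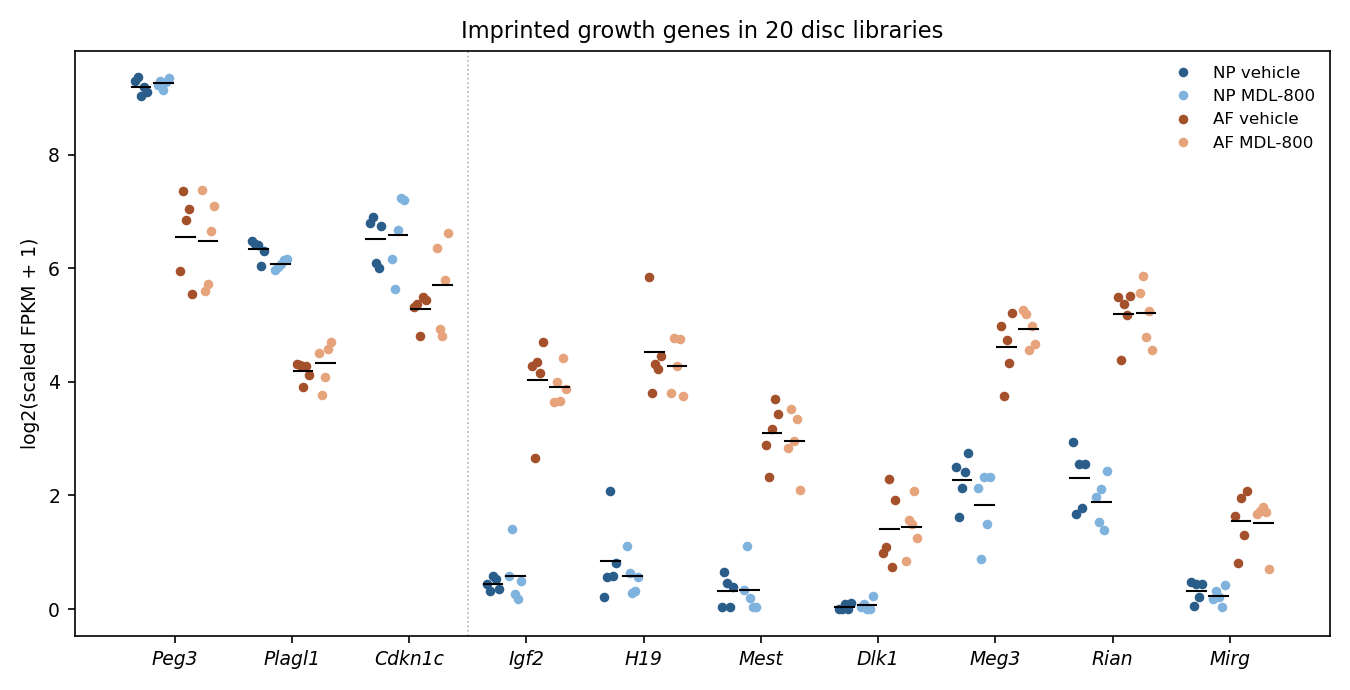
Each point is 1 library, plotted as log2(scaled FPKM + 1) for the 10 members in the 4 groups, and black lines are group means on that scale (n = 5). Peg3, Plagl1 and Cdkn1c, left of the dotted line, lie higher in NP, and the other 7 members lie higher in AF, with overlapping treatments within each tissue.

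The same comparison in MDL-800 libraries, which share none with the vehicle comparison, called 9 of 10 members by limma, beside 62.8% of all genes. Of these 2 were higher (25.6% of all genes) and 7 lower (37.2%) in NP. The 9 called members did not overlap between tissues, as in 49.1% of all genes, and Cdkn1c did overlap. The filter used all 20 libraries, so Mirg, Dlk1, Igf2, Mest and H19 entered this test through AF as well. These counts too describe the members and are no support for a difference.

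**Figure D2:**
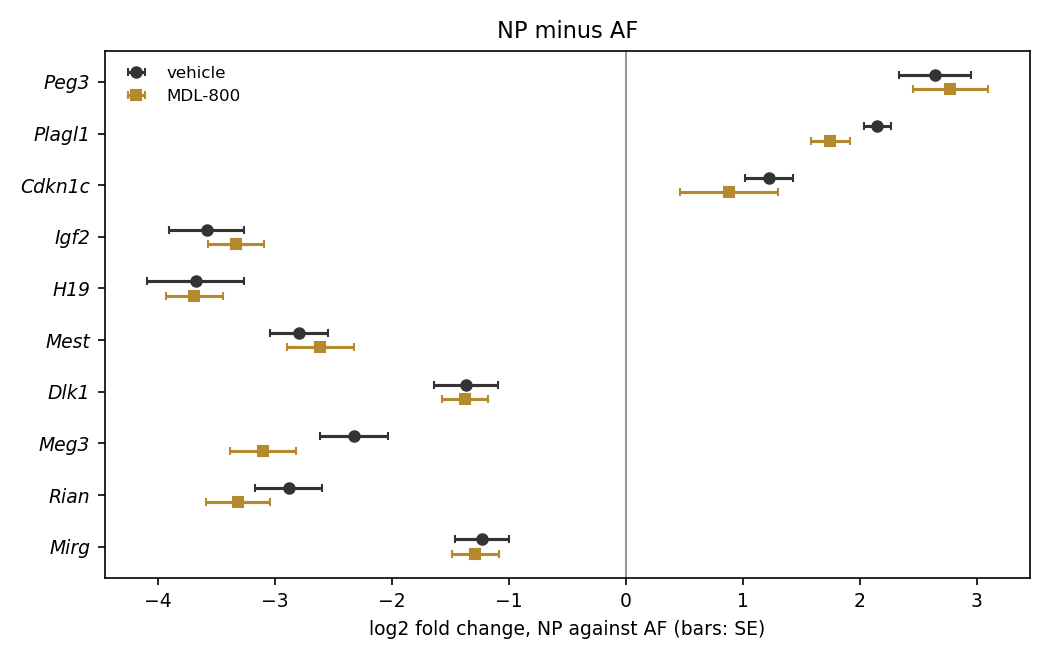
Log2 fold change of NP against AF on the log2(scaled FPKM + 1) scale for each member in vehicle (circles) and under MDL-800 (squares), with standard errors. Peg3 lay at 2.64 and 2.77 and H19 at -3.68 and -3.69, while Cdkn1c lay at 1.22 and 0.88.

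Peg3 encodes a zinc-finger protein expressed from the paternal copy and had the highest level of the 10 members in every group. Its scaled FPKM in the NP vehicle libraries was 629.9, 656.0, 519.1, 581.2 and 545.1, and in the AF vehicle libraries 60.9, 163.2, 114.3, 130.6 and 45.9. The NP libraries lay close together, while the AF libraries spread by a factor of more than 3. The mean was 586.2 ± 57.0 (SD, n = 5) in NP, where 99.3% of tested genes were lower, and 103.0 ± 48.9 in AF. The difference on the log2 scale was 2.64 ± 0.31 (SE; adjusted p = 5.4e-05 by limma) in vehicle and 2.77 ± 0.32 (adjusted p = 3.1e-05 by limma) under MDL-800.

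The neighbours of Peg3 on chromosome 7 had the same direction. Zim1, a maternally expressed zinc-finger gene next to Peg3, had a mean of 129.4 ± 25.8 in NP and 18.8 ± 10.0 in AF vehicle (SD, n = 5), and NP against AF gave 2.87 on the log2 scale (adjusted p = 5.3e-05 by limma). Usp29, a paternally expressed gene that starts 0.1 kb from the start of Peg3 on the opposite strand, had 45.8 ± 3.40 and 8.28 ± 4.71, and NP against AF gave 2.49 on the log2 scale (adjusted p = 7.1e-05 by limma). Peg3 lies at chr7:6703892-6730431 (GRCm38, minus strand). Its RefSeq promoter window, 250 bases before to 50 after the start (chr7:6730370-6730669), is shown because Peg3 led the NP-high members. The capitals mark the palindrome GGGGCCCC, which resembles a PLAGL1 site, 201 bases before the start, and the cAMP response element TGACGTCA, 178 bases before it.
Peg3: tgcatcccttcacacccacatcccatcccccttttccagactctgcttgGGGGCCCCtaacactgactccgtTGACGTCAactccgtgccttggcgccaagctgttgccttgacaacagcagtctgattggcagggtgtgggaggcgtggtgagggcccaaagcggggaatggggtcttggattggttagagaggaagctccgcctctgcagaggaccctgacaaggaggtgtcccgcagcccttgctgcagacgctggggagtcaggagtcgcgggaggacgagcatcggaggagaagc
Both motifs were searched on both strands, together with TATAAA, in 32851 windows of this length. GGGGCCCC is in 1.08% of them, TGACGTCA in 1.79% and TATAAA in 13.6%. The window holds 13 CpG dinucleotides, against a median of 7. A match is a description of the letters.

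Plagl1, a paternally expressed zinc-finger transcription factor known to act on other genes of the network, lies at chr10:13060504-13131694. Its scaled FPKM was 88.5, 85.4, 83.9, 64.5 and 77.8 in the NP vehicle libraries and 18.8, 18.7, 13.9, 18.5 and 16.4 in the AF vehicle libraries. Every NP library was higher than every AF library. The means were 80.0 ± 9.50 and 17.3 ± 2.11 (SD, n = 5), and the difference on the log2 scale was 2.15 ± 0.12 (SE; adjusted p = 4.0e-06 by limma). Under MDL-800 it was 1.75 ± 0.16 (adjusted p = 8.2e-06 by limma).

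Cdkn1c, which encodes the cyclin-dependent kinase inhibitor p57, lies at chr7:143458339-143461050 and is expressed from the maternal copy. It was 110.7, 118.8, 66.9, 63.0 and 105.5 in NP vehicle and 38.8, 40.3, 26.9, 43.9 and 42.4 in AF vehicle. The NP libraries were all above the AF libraries, with means of 93.0 ± 26.1 and 38.5 ± 6.76 (SD, n = 5), and NP against AF gave 1.22 ± 0.21 on the log2 scale (SE; adjusted p = 0.00053 by limma). Under MDL-800 it was 70.7, 49.0, 101.0, 149.1 and 146.3 in NP and 80.9, 29.4, 26.9, 54.6 and 97.3 in AF, which overlapped. That log2 fold change was 0.88 ± 0.42 (SE; adjusted p = 0.088 by limma), and a limma fit of all 4 groups gave an adjusted p of 0.035. AF MDL-800 libraries 25 and 30, with 80.9 and 97.3, also had NP marker sums of 3067 and 2639, the highest of their group. AF vehicle library 9 had the highest NP marker sum of all AF libraries, 4259, with a Cdkn1c level of 40.3. Over the 10 AF libraries Cdkn1c and the NP markers had r = 0.539 and rho = 0.442 (permutation adjusted p = 0.43 and 0.46), and r = 0.295 without libraries 25 and 30. What part the NP marker levels have in the overlap of Cdkn1c was not tested.

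Igf2, a secreted growth factor expressed from the paternal copy, and H19, a maternally expressed non-coding RNA, share enhancers and a control region on chromosome 7. They lie at chr7:142650766-142666816 and chr7:142575529-142578143. Igf2 overlaps the antisense gene Igf2os, and whether reads were counted by strand is not given in the sources used here. Igf2 was 0.354, 0.248, 0.506, 0.444 and 0.277 scaled FPKM in NP vehicle and 18.4, 5.34, 19.3, 16.9 and 25.1 in AF vehicle. The NP mean was 2.15% of the AF mean. The log2 fold change on the log2(scaled FPKM + 1) scale, which understates the difference of a gene this low in NP, was -3.58 ± 0.32 (SE; adjusted p = 1.2e-05 by limma).

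H19 was 0.161, 0.475, 3.24, 0.493 and 0.750 in NP vehicle and 56.4, 12.9, 18.9, 17.7 and 21.0 in AF vehicle. NP library 3 and AF library 8 were far above the rest of their groups, and the tissues still did not overlap. The means were 1.02 ± 1.26 and 25.4 ± 17.6 (SD, n = 5), and the difference on the log2 scale was -3.68 ± 0.42 (SE; adjusted p = 4.5e-05 by limma). Nctc1, a non-coding RNA on the far side of H19 from Igf2, had means of 0.403 ± 0.666 in NP and 7.46 ± 7.16 in AF vehicle, and NP against AF gave -2.30 on the log2 scale (adjusted p = 0.0033 by limma). The tissues overlapped because NP library 3, at 1.59, lay above AF library 8, at 1.00. Without NP library 3 the NP means were 0.107 ± 0.085 for Nctc1 and 0.470 ± 0.241 for H19 (SD, n = 4), and Nctc1 had a log2 fold change of -2.54 (adjusted p = 0.0029 by limma).

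Dlk1, Meg3, Rian and Mirg lie in that order on the plus strand of the Dlk1-Dio3 domain, which spans 828 kb on chromosome 12. Dlk1 encodes a paternally expressed membrane protein of the Notch ligand family known for restraining the differentiation of fat precursors, and Meg3, Rian and Mirg are maternally expressed non-coding RNAs. All 4 were lower in NP in both treatments.

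Meg3 (chr12:109541001-109571726) was 4.63, 2.08, 3.37, 4.32 and 5.71 scaled FPKM in NP vehicle and 30.5, 12.4, 25.8, 19.2 and 36.2 in AF vehicle. Its difference on the log2 scale was -2.32 ± 0.29 (SE; adjusted p = 7.5e-05 by limma). Rian (chr12:109603940-109661716) had means of 4.21 ± 1.88 and 36.8 ± 10.2 (SD, n = 5), and NP against AF gave -2.88 on the log2 scale (adjusted p = 2.2e-05 by limma). Both were detected in NP, at 16.2% and 11.5% of their AF level. Mirg (chr12:109729764-109749460), a host of many miRNAs, was lower throughout, with means of 0.259 ± 0.152 and 2.08 ± 1.01, and NP against AF gave -1.23 on the log2 scale (adjusted p = 0.00099 by limma).

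Dlk1 (chr12:109452823-109463336) was listed at 0 in 3 of 5 NP vehicle libraries and at 0.0607 and 0.0790 in the others. In AF vehicle it was 0.973, 1.13, 3.90, 0.666 and 2.79. A single read of Dlk1 is worth about 0.011 FPKM at the median depth, so the NP values stand on few reads. Its difference on the log2 scale was -1.37 ± 0.27 (SE; adjusted p = 0.0015 by limma). With a pseudocount of 0.1 in place of 1 the log2 fold change in vehicle was -3.73 for Dlk1, -2.59 for Mirg and -4.74 for Mest, and with quantile normalization that of Mirg was -0.69.

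**Figure D3:**
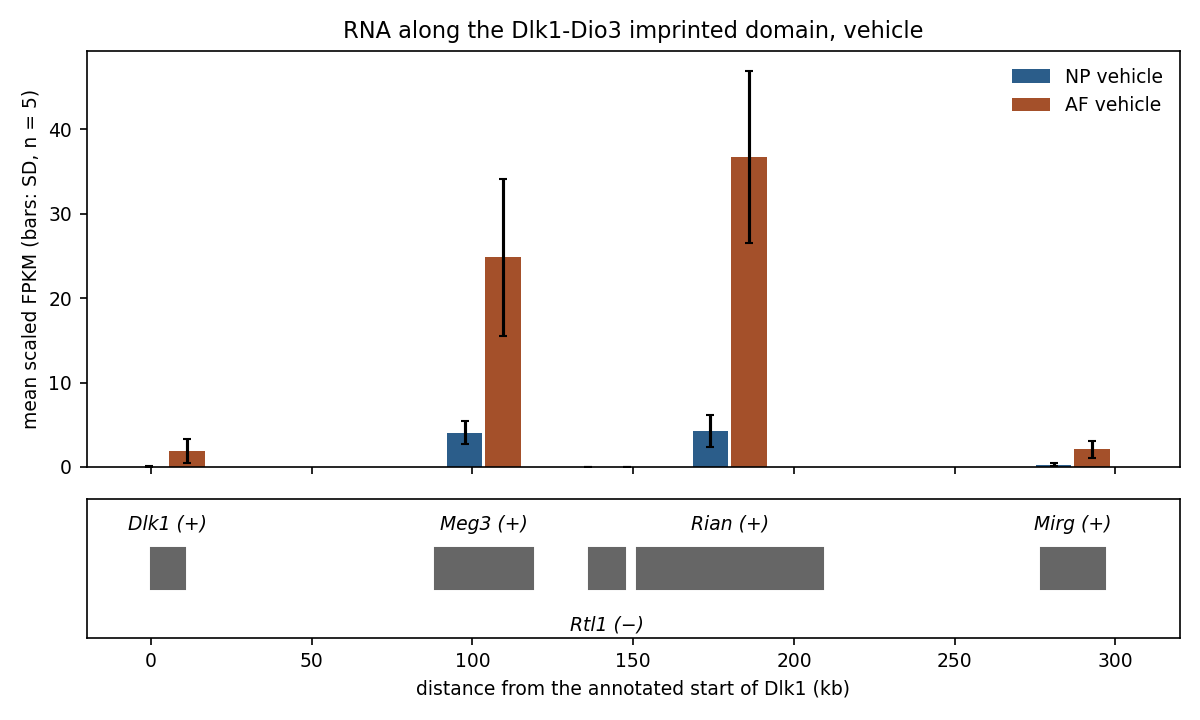
Mean scaled FPKM (bars, SD, n = 5) of genes of the Dlk1-Dio3 domain in NP vehicle and AF vehicle, above their positions in kb from the annotated start of Dlk1. Rtl1, a protein-coding gene on the opposite strand, was listed at 0 in NP and is drawn without visible bars. Rian and Meg3 reached 36.8 and 24.8 in AF, and Dlk1 and Mirg about 1.89 and 2.08, all above NP.

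The RefSeq window at the first Meg3 start (chr12:109540746-109541045) is shown because Meg3 opens the run of non-coding RNAs. Capitals mark TGACGTCA, 57 bases before the start, and a run with overlapping matches to TATAAA on both strands, which begin 29 and 25 bases before it.
Meg3: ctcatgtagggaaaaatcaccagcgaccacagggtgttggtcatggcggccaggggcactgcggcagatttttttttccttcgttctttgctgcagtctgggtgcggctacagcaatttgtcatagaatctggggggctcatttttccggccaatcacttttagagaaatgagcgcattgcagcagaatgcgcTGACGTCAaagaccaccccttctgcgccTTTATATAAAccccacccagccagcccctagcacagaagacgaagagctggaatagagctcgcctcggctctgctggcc
Of 14 RefSeq windows for 8 members, 1 of Peg3 and 1 of Meg3 hold a searched motif, and no window was found for H19 or Cdkn1c. The Rian window holds 0 CpG dinucleotides and that of Plagl1 26.

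Mest, a paternally expressed gene that encodes a protein with a hydrolase fold in the endoplasmic reticulum, lies at chr6:30723547-30748465. It was 0.0214, 0.578, 0.374, 0.0197 and 0.306 in NP vehicle and 6.43, 4.01, 7.99, 12.0 and 9.86 in AF vehicle. NP libraries thus held 3.22% of the AF mean, and no library overlapped. The difference on the log2 scale was -2.79 ± 0.25 (SE; adjusted p = 1.2e-05 by limma).

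Most markers of other tissues were also higher in AF. Of all genes 33.9% were called lower in NP in vehicle. By limma in vehicle, 12 of 12 skeletal muscle, 6 of 6 endothelial, 5 of 6 fat, 6 of 6 bone, 5 of 5 nerve, 6 of 6 red blood cell and 4 of 5 fibroblast markers were lower in NP. The other fibroblast marker, Sema3c, a secreted semaphorin, was higher in NP, with means of 42.4 ± 6.26 and 25.1 ± 6.75 (SD, n = 5) and a log2 fold change of 0.76 (adjusted p = 0.0047 by limma). Fibroblast markers summed to between 32.8 and 54.9 scaled FPKM in NP and between 117 and 265 in AF. Without Sema3c the sums of the other 4 were between 2.07 and 7.47 in NP and between 84.8 and 235.0 in AF. The sums of endothelial markers were between 10.6 and 25.5 in NP and between 60.3 and 122.8 in AF. No gene of these lists was at 0 in every library of a tissue. Their part in the lower NP levels of the 7 members was not tested, and in bulk tissue fewer cells of a type and less RNA per cell cannot be told apart.

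The 6 hosts H19, Igf2, Meg3, Rian, Mirg and Mest hold 22 miRNA genes in RefSeq and 41 mature miRNAs. All 22 miRNA genes were listed at 0 in every library, including AF libraries where the hosts were higher than in NP, so mature miRNAs were not measured here. The following examples from the 41 mature miRNAs have the seed (bases 2 to 8) in capitals, and none from Rian is shown.
miR-675-5p (H19): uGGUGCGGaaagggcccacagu
miR-483-5p (Igf2): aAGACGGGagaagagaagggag
miR-770-5p (Meg3): aGCACCACgugucugggccacg
miR-335-5p (Mest): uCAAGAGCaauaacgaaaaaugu
miR-453 (Mirg): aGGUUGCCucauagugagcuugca
miR-496a-5p (Mirg): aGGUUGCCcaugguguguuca
The last pair, both from Mirg, have the 1 seed shared among the 41 mature miRNAs, which have 40 distinct seeds.

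Among other genes of the members' loci, 9 of 24 listed were tested, and in vehicle limma called 4 higher and 3 lower in NP. Of all genes 21.8% were called higher and 33.9% lower. Of 40 other imprinted genes 31 were tested, with 15 higher, 5 lower and 11 not called. Their median log2 fold change was 0.40. Dcn, which encodes the matrix proteoglycan decorin, had the lowest fold change of these, with means of 44.6 ± 35.2 in NP and 3234 ± 1150 in AF vehicle (SD, n = 5), and NP against AF gave -6.57 on the log2 scale (adjusted p = 2.2e-05 by limma). Gatm, an enzyme of creatine synthesis, had a log2 fold change of -3.40 (adjusted p = 2.2e-05 by limma), and Nnat, a small membrane protein gene, one of -1.89 (adjusted p = 6.7e-05 by limma).

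Igf2r, Grb10 and Igf1r, which act on IGF signals, were higher in NP. Igf2r, which encodes the receptor that removes IGF2 from the cell surface, had means of 42.9 ± 9.90 in NP and 23.7 ± 3.62 in AF vehicle (SD, n = 5), and NP against AF gave 0.81 on the log2 scale (adjusted p = 0.0011 by limma). Grb10, an adaptor that dampens insulin and IGF1 receptor signals, had 66.7 ± 12.9 and 30.5 ± 4.43, and NP against AF gave 1.10 on the log2 scale (adjusted p = 0.00011 by limma). Igf1r, the receptor through which IGF2 signals, had 59.1 ± 3.86 and 22.4 ± 2.24, and NP against AF gave 1.36 on the log2 scale (adjusted p = 4.0e-06 by limma). Of 5 tested genes among the receptors of IGF2 and DLK1 and the Igf2 RNA-binding proteins, 2 were called higher in NP and 3 were not called. Of all genes 21.8% were called higher in vehicle. Under MDL-800 Gatm (-3.31, adjusted p = 1.1e-06 by limma), Igf1r (1.48, 6.3e-06), Dcn (-5.80, 2.1e-05), Usp29 (2.58, 2.3e-05), Grb10 (0.96, 0.00016) and Igf2r (0.56, 0.0051) had the same direction.

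MDL-800 was compared with vehicle within NP. By limma 0 of 10 members were called, beside 0.250% of all genes, and 0 did not overlap, beside 4.50% of all genes. At an unadjusted p under 0.05 1 of 10 members passed, Plagl1, beside 2311 of 16383 genes, so the members' share was no higher than that of all genes. Its NP values were 61.7, 64.3, 66.1, 69.9 and 71.0 under MDL-800, against 88.5, 85.4, 83.9, 64.5 and 77.8 in vehicle, and vehicle library 5 lay inside the treated range. Its difference on the log2 scale was -0.25 ± 0.09 (SE; adjusted p = 0.23 by limma). The slope of log2 level on gene GC content also separated the NP groups, from -0.22 to 0.06 per 10 percentage points in vehicle and from 0.09 to 0.16 under MDL-800. With the GC trend removed from each library, the log2 fold change of Plagl1 was -0.20 (adjusted p = 0.38 by limma). The other members had log2 fold changes of -0.45 ± 0.31 (Meg3), -0.41 ± 0.28 (Rian), -0.27 ± 0.32 (H19), -0.09 ± 0.11 (Mirg), 0.03 ± 0.07 (Dlk1), 0.03 ± 0.21 (Mest), 0.07 ± 0.09 (Peg3), 0.08 ± 0.32 (Cdkn1c) and 0.14 ± 0.20 (Igf2), with SE. None of these was beyond 2 SE.

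Of the other imprinted genes 1 was called in NP. Zfp64, a zinc-finger gene, averaged 5.33 ± 0.83 in vehicle against 10.4 ± 0.83 in treated libraries (SD, n = 5), and MDL-800 against vehicle gave 0.86 on the log2 scale (adjusted p = 0.017 by limma). Leaving out single libraries moved that adjusted p between 0.015 and 0.085, and the call was lost without NP vehicle library 1, 2 or 3 or NP MDL-800 library 20 or 22. Igf2r and Grb10 had log2 fold changes of -0.21 (adjusted p = 0.52 by limma) and -0.16 (adjusted p = 0.58 by limma).

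Within AF 0 of 10 members were called by limma and 0 of 10 had an unadjusted p under 0.05. Of all genes 0.00% were called, with 270 at an unadjusted p under 0.05, and 0.226% did not overlap. Cdkn1c had the largest difference among the members, 0.42 ± 0.34 (SE), and Meg3 0.33 ± 0.27, both with a limma adjusted p of 1.0. Igf2 was 11.5, 14.9, 11.6, 20.3 and 13.7 under MDL-800, within the 5.34 to 25.1 of vehicle. H19 was 13.0, 26.3, 18.5, 26.0 and 12.4, where vehicle ran from 12.9 to 56.4. The remaining members were at -0.26 ± 0.37 (H19), -0.16 ± 0.31 (Mest), -0.11 ± 0.34 (Igf2), -0.07 ± 0.44 (Peg3), -0.03 ± 0.28 (Mirg), 0.02 ± 0.29 (Rian), 0.04 ± 0.32 (Dlk1) and 0.15 ± 0.18 (Plagl1). Of the other lists 0 genes passed, and Ndn (0.42) and Zfp64 (0.33) had the smallest unadjusted p, 0.055 and 0.080 by limma, while Igf2r and Grb10 were at 0.05 and -0.02.

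**Figure D4:**
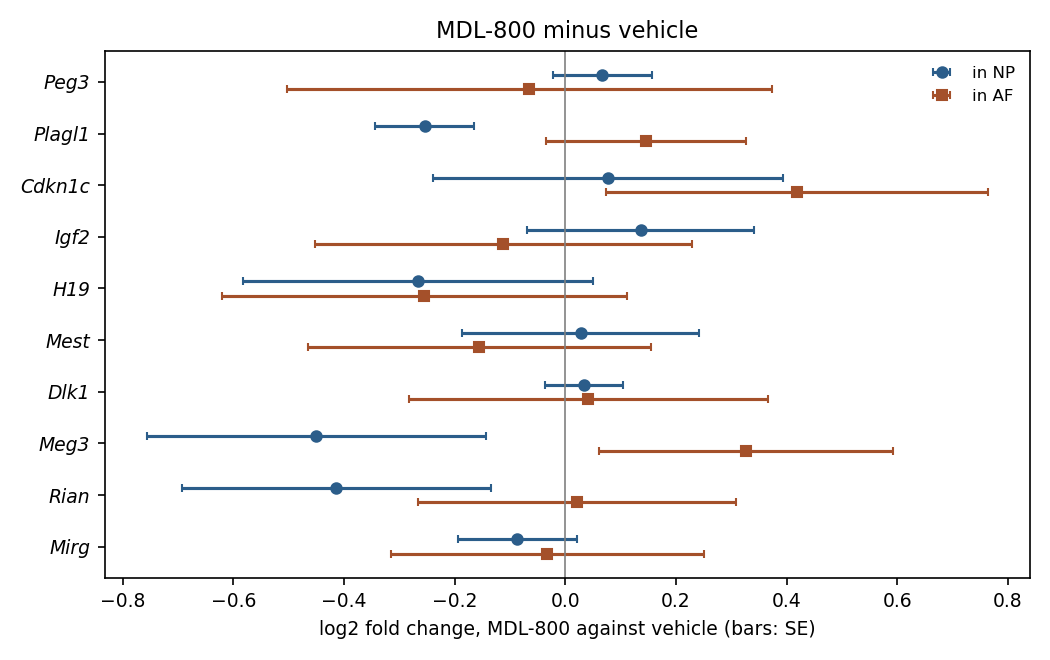
Log2 fold change of MDL-800 against vehicle on the log2(scaled FPKM + 1) scale, in NP (circles) and AF (squares), with standard errors. The values run from -0.45 to 0.14 in NP and from -0.26 to 0.42 in AF, and no member was called.

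The difference between the 2 treatment effects was tested directly. By limma 0 of 10 members were called, with 0.00% of all genes called and 611 genes at an unadjusted p under 0.05. Meg3 had the largest value, -0.78 ± 0.42 (SE; adjusted p = 1.0 by limma), with the other members between -0.43 (Rian) and 0.25 (Igf2). Those were -0.40 (Plagl1), -0.34 (Cdkn1c), -0.05 (Mirg), -0.01 (H19), -0.01 (Dlk1), 0.13 (Peg3) and 0.18 (Mest). Among other imprinted genes Zfp64 had 0.53 (adjusted p = 1.0 by limma), Airn -0.55, Igf2r -0.26 and Grb10 -0.14. A p that misses the threshold does not show that NP and AF responded alike.

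Over the 10 libraries of a tissue, relations were computed for 125 pairs with permutation tests of 100000 resamples, adjusted over the pairs. Of 45 member pairs in AF 1 had an adjusted p under 0.05 by Pearson's r. Plagl1 rose with Cdkn1c, with r = 0.887 (permutation p = 0.00063, adjusted p = 0.026), rho = 0.842 (adjusted permutation p = 0.093), and r = 0.858 without the 2 libraries farthest from the median of Plagl1. In NP the same pair had r = 0.374 (permutation adjusted p = 0.49) and rho = 0.503 (permutation adjusted p = 0.38). With the NP markers in AF, Plagl1 had r = 0.608 and rho = 0.661 (permutation adjusted p = 0.39 and 0.35). Cdkn1c had r = 0.539 with them (permutation adjusted p = 0.43). What part the NP marker levels have in the relation of Plagl1 and Cdkn1c was not tested. Meg3 and Rian had r = 0.825 (permutation adjusted p = 0.088) and rho = 0.903 (permutation adjusted p = 0.035) in AF, and r = 0.748 (permutation adjusted p = 0.23) in NP, where leaving out the 2 farthest gave 0.595. H19 and Igf2 had r = 0.520 (permutation adjusted p = 0.44). Libraries of both treatments were pooled, since r within 5 is not given.

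Of 70 pairs of members with marker lists in AF, 2 passed. Peg3 rose with NP markers, with r = 0.888 (permutation adjusted p = 0.021), rho = 0.903 and 0.803 without the 2 farthest libraries. AF vehicle library 9, with the largest NP marker sum, had a Peg3 level of 163.2, near the highest of the 10 AF libraries. Mest rose with fibroblast markers, with r = 0.900 (permutation adjusted p = 0.021), rho = 0.964 and 0.895 without the 2 farthest. What part these marker levels have in the tissue differences was not tested.

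**Figure D5:**
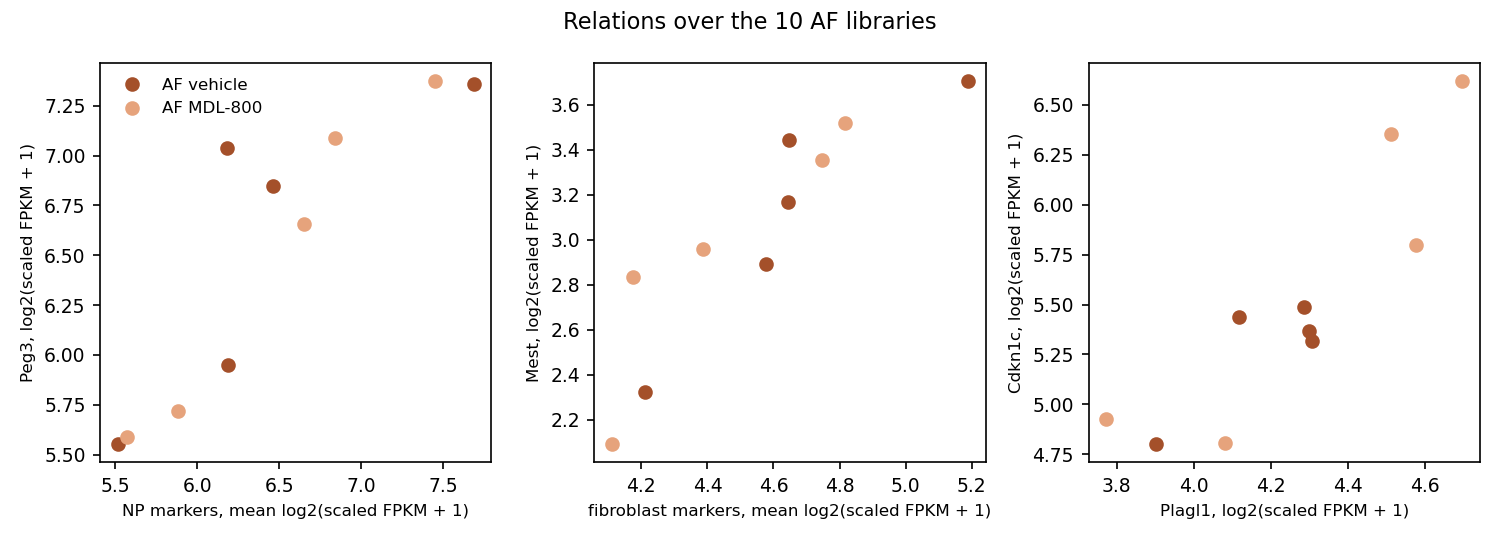
Each point is 1 of 10 AF libraries. The panels plot Peg3 against the mean of the NP markers, Mest against the mean of the fibroblast markers and Cdkn1c against Plagl1, all as log2(scaled FPKM + 1), with Pearson's r of 0.888, 0.900 and 0.887.

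Among 11064 genes with a mean of at least 5 scaled FPKM in AF, the genes whose level over the 10 AF libraries was most like that of a member were found by Pearson's r, as a description. For H19 they included Tmem39a (0.901) and Zfp354c (0.895). For Igf2 they were Sema4c (0.918), Metrnl (0.904) and Afap1 (0.897). For Meg3 they were Arl16 (0.856), Cwc25 (0.844) and Scube1 (0.842). For Dlk1 they were Mgl2 (0.901), Mylk (0.886) and Palm (0.868). For Mest they were Dip2c (0.966), Svep1 (0.966) and Rbfox2 (0.961).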

How the data were processed

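Total RNA of 20 libraries (50 ng, 14 PCR cycles, ribosomal RNA removed, per the labels' protocols) had been sequenced. The authors deposited FPKM per gene, and the submitters' processing notes name STAR 2.7.11b and mm10, while the tool that made the FPKM is not given in the sources used here. FPKM were divided by median-ratio factors (0.933 to 1.06, from 11308 genes) and tested as log2(scaled FPKM + 1). The 16383 genes that reached 1 FPKM in 5 or more of the 20 libraries were tested with limma 3.58.1 in R 4.3.3 (lmFit, eBayes with trend, two-sided), fitted to the 2 groups compared, or to all 4 for the interaction, with Benjamini-Hochberg adjustment and a threshold of 0.05. The script was tested on simulated data. Coordinates are from GENCODE M21 (GRCm38), and sequences from RefSeq (GRCm38.p6).

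FPKM keep no read totals. Depth was estimated from whole-read steps in single-exon genes, where 79.7% to 84.6% of values lay within 0.15 of a whole read. The steps were not treated as recovered counts.

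The members and lists were chosen with earlier results of these data known. All 10 members were named in each comparison. Of the other lists, the 6 genes with the smallest adjusted p were named in the vehicle tissue comparison and elsewhere up to 4 past the threshold, or the 2 with the smallest p where none passed, with Igf2r and Grb10 always named. Nctc1 was named after its values were seen, as a neighbour of H19. A gene among those most like H19 is not reported here. Alternatives were another pseudocount, unscaled FPKM, quantile normalization, no filter, GC trend removal, all groups in 1 fit and leaving out each library.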

Additional observations from a re-analysis of the deposited data

Results flagged for a closer look

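Among 40 groups of 5 libraries (10 members in 4 groups), 5 held a library whose gap to its nearest neighbour exceeded 0.71 of the group's range. Gaps were taken on scaled FPKM, not on the log2 scale of the tests. Chance gives about 1 in 20 such groups only for normally distributed values, which scaled FPKM at low levels need not be. The 5 are therefore no measure of an excess. H19 was highest in NP vehicle library 3, at 3.24 scaled FPKM with the next at 0.750, and that library also had the highest NP skeletal muscle marker sum, 1766, whose part was not tested. H19 was highest in AF vehicle library 8, at 56.4 with the next at 21.0, and that library had the highest AF marker sum, 4426, whose part was not tested. NP MDL-800 library 18 was highest for Igf2, at 1.64 with the next at 0.498, and for Mest, at 1.17 with the next at 0.259. Mirg was lowest in AF MDL-800 library 30, at 0.626 with the next at 2.20.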

How the results depend on the processing

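The number of members called between the tissues stayed at 10 in vehicle and at 9 or 10 under MDL-800 in every alternative run. With 16383 genes tested, all genes called in vehicle ran from 8291 (without AF vehicle library 13) to 10397 (quantile normalization). Under MDL-800 they ran from 7858 (replicate block) to 11209 (quantile normalization). Without the filter 10573 of 32358 genes were called in vehicle and 12123 of 32358 under MDL-800, a smaller share of more genes. Members called stayed at 0 in the treatment comparisons and the interaction. The runs included one without NP vehicle library 3 and AF vehicle library 9, chosen after seeing the data. The number of all genes called for MDL-800 in NP was 41 and was less stable, with 18 for unscaled FPKM, 70 with quantile normalization, 7 without the filter, 4 with all groups in 1 fit and from 2 (without NP vehicle library 3) to 189 (without NP vehicle library 6) when single libraries were left out. The causes were not tested. Cdkn1c between tissues under MDL-800 was called with all groups in 1 fit (0.88, limma adjusted p = 0.035) and when NP library 18 (1.12) or AF library 30 (1.11) was left out. Leaving out single libraries moved its log2 fold change between 0.66 and 1.12 and its limma adjusted p between 0.038 and 0.20. All 10 members kept their direction and call between the tissues in vehicle in every alternative run. With unscaled FPKM Pearson's r kept its side of the threshold for Plagl1 with Cdkn1c, H19 with Igf2, Peg3 with NP markers and Mest with fibroblast markers in AF, and for Meg3 with Rian in both tissues. Spearman's rho was not recomputed on unscaled FPKM.

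The sample titles share no numbers between groups, but column names of the deposited table do, and same-numbered libraries did not all deviate together (correlations from -0.18 to 0.29). With that number as a replicate block, added after seeing the data, 10 members were called in vehicle, beside 8783 of 16383 genes. Under MDL-800 10 were called, beside 7858 of 16383 genes. Cdkn1c there had 1.58 (limma adjusted p = 0.027) with the block, and 1.58 (limma adjusted p = 0.035) in the same 3 pairs without it. Igf2r there had 0.56 with a limma adjusted p of 0.091 with the block and 0.073 without it.

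Small treatment differences changed sign. In NP these were Mest (-0.049, pseudocount 0.1), Peg3 (-0.032, quantile), Dlk1 (-0.051) and Cdkn1c (-0.12) with the GC trend removed, and H19 (0.043) and Cdkn1c (-0.028) without NP vehicle library 3. In AF these were Rian (-0.0021, quantile), and Rian (-0.18), Dlk1 (-0.037), Peg3 (0.14) and Grb10 (0.016) without AF vehicle library 9. In the interaction these were Dlk1 (0.089, pseudocount 0.1, and 0.074, quantile), H19 (0.044, quantile), and H19 (0.48), Mirg (0.16), Dlk1 (0.082) and Peg3 (-0.11) without both libraries. Leaving out single libraries changed signs in NP for Mest (-0.17 to 0.11), H19 (-0.42 to 0.0425), Cdkn1c (-0.085 to 0.31), Igf2 (-0.0689 to 0.24) and Dlk1 (-0.0063 to 0.0519), in AF for H19 (-0.44 to 0.0738), Dlk1 (-0.13 to 0.26), Grb10 (-0.12 to 0.0954), Rian (-0.18 to 0.18), Peg3 (-0.31 to 0.16), Mirg (-0.22 to 0.17), Igf2r (-0.022 to 0.17), Igf2 (-0.45 to 0.057) and Mest (-0.35 to 0.0595), and in the interaction for H19 (-0.34 to 0.30), Dlk1 (-0.23 to 0.16), Mest (-0.0319 to 0.38), Mirg (-0.26 to 0.13) and Peg3 (-0.0921 to 0.38). Depth limits Dlk1, Mest, Mirg and Igf2 in NP, where they stand near the lowest levels.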
